A study of Mus musculus with 13 samples.

Results

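The cells described here were the endothelial cells of E8.5 and E10.5 mouse embryos (E for embryonic day), the cells that line blood vessels and the inner wall of the heart. They numbered 1174 of the 34605 cells analysed in these embryos, and 66075 cells were analysed in the 9 libraries of the series used here. A cell had at least 2000 unique molecular identifiers (UMIs, each the tag of 1 captured transcript) and 500 genes. Members were chosen by their own marker counts: a cell was taken when Cdh5, Pecam1, Emcn and Cldn5 together gave at least 4 UMIs, at least 2 of these 4 genes were seen, and the 7 globin genes held under 10% of its UMIs. The E8.5 library held 214 members of 5657 cells, or 3.78% (exact 95% binomial interval 3.30 to 4.31%). E10.5 library 1 held 488 of 14667 cells (3.33%, 3.04 to 3.63%) and E10.5 library 2 held 472 of 14281 cells (3.31%, 3.02 to 3.61%). These intervals cover counting error only, and the 3 of them overlap.

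All animals were wild-type C57Bl/6J mice. The embryos had been freed of head and limbs before they were dissociated, so vessels of the head and limbs were not sampled in full, and for E12.5, E14.5 and E16.5 only the heart was taken. The E8.5 embryos entered as 1 library and every other stage as 2; the other E8.5 library was not analysed here. The series states biological replicates, but its labels do not say which embryos went into a library, so p-values measure the spread between libraries.

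Endothelial cells first arise in mesoderm, where the ETS factor Etv2 starts their programme, and VEGF receptors then guide them as they join into vessels. Vessels take on arterial or venous identity, sprout under Notch and VEGF signals, and surround themselves with a basement membrane. Endocardial cells are the endothelium of the heart wall, and in a defined region of the embryo some arterial cells give rise to blood.

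Members held more UMIs per cell at E8.5. Their median was 30222 UMIs at E8.5, 20021 in E10.5 library 1 and 20446 in E10.5 library 2, against 14427 to 24385 in the other cells of the same libraries. The E8.5 library shared 106 and 104 barcodes with the E10.5 libraries, and the E10.5 libraries shared 263 with each other, of which 1 was a member in both. The libraries also differed in sex composition. Genes of the Y chromosome gave 95 UMIs in 39 of the 214 E8.5 members and 0 UMIs in members and other cells of both E10.5 libraries, while Xist, the RNA that silences an X chromosome, was at 532 CPM (UMIs of a gene per 1000000 UMIs summed) in E8.5 members and at 1472 and 1527 CPM in E10.5 members. A count of 0 allows up to 3 UMIs, or 0.255 and 0.257 CPM in the E10.5 member sums. With 1 library at E8.5, stage, sex composition and library cannot be told apart.

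The label was checked on 8 endothelial genes that the rule did not use, Kdr, Flt1, Tek, Tie1, Eng, Esam, Egfl7 and Ramp2. A member had a median of 56.5 UMIs of these genes at E8.5 and of 40 and 38 in the E10.5 libraries, against 1, 0 and 0 in the other cells. Under 8 UMIs were found in 4, 5 and 13 members, and at least 20 in 13, 14 and 13 of the other cells. Members just inside the threshold, at 4 UMIs of the rule genes, had medians of 20, 17 and 12 UMIs of the check genes (2, 17 and 15 cells), and cells just outside, at 3 UMIs, had medians of 17, 14 and 8 (7, 12 and 13 cells). Genes of other cell types were low in most members. The 11 cardiomyocyte genes summed to 656 CPM at E8.5 and to 97.6 and 192 CPM at E10.5, while the median member had 0.615, 0.595 and 0.554 of their UMIs per 10000, and 5, 2 and 3 members carried at least 50 per 10000. Mesenchyme genes summed to 44.6, 158 and 154 CPM and neural genes to 65.1, 133 and 134 CPM. Erythroid genes summed to 54.8, 26.0 and 26.3 CPM, macrophage genes to 7.44, 15.98 and 4.63 CPM, megakaryocyte genes to 12.3, 34.0 and 14.1 CPM, and epithelial and endoderm genes to 75.3, 78.7 and 71.3 CPM. Among defining markers, Ptprc, Csf1r and C1qa had 0 UMIs in E8.5 members, and Alb had 0 in members of all 3 embryo libraries. Members with at least 10 UMIs per 10000 from any of these 7 lists were left out in an alternative, which kept 206, 473 and 457 members; calls of named genes that it ended, and list counts that it moved by more than 2 calls, are given beside those results.

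The 4 genes of the rule are described without a test. Cdh5, the cadherin of endothelial junctions, stood at 167 CPM in E8.5 members and at 300 and 274 CPM in E10.5 members. Cldn5, a tight junction protein, stood at 362, 211 and 207 CPM, and was at 27.7 and 22.6 CPM in cells taken by the same rule from E12.5 hearts. Emcn, a sialomucin of veins and capillaries, stood at 301, 322 and 307 CPM, and Pecam1, an adhesion molecule, at 57.3, 123 and 117 CPM. Cdh5 and Pecam1 were thus lower and Cldn5 higher in the E8.5 library than in either E10.5 library.

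The genes with the largest excess in members over the other cells of their library included receptors and adhesion molecules of the vessel wall. Because the members were chosen for endothelial genes, this is a description with no test. The excess of a gene was its lowest ratio of the 3 libraries, taken after 1 CPM was added to both levels. Of 1856 genes with at least 50 CPM in the members of all 3 libraries, 80 (4.31%) were at least 4-fold above the other cells in all 3 and 34 were at least 16-fold above. The number at 4-fold was 82 when the other cells were limited to those without a UMI of the rule genes. By this measure Cd34, a surface sialomucin, came first, at 172, 298 and 280 CPM in members against 1.17, 2.30 and 2.31 CPM in other cells. The added CPM weighs on genes near 0 in other cells. By the levels alone the lowest ratios of Cd93, Icam2, Kcne3, Esam and Flt4 were above that of Cd34. Cd93, a lectin-like receptor, was at 71.5, 161 and 147 CPM against 0.168, 0.835 and 0.634 CPM. Icam2, an adhesion molecule for leukocytes, was at 142, 84.6 and 81.4 CPM against 0.401, 0.453 and 0.412 CPM. Among the 20 genes with the largest excess were also the VEGF receptors Kdr, Flt1 and Flt4, the angiopoietin receptor Tek, the semaphorin receptor Plxnd1, the TGF-beta co-receptor Eng, the junction protein Esam and the flow-responsive factor Klf2. Less familiar endothelial genes stood beside them. Clec1b, best known as the podoplanin receptor of platelets, was at 188, 122 and 115 CPM in members against 0.825, 1.55 and 1.75 CPM in other cells. Vamp5, a vesicle fusion protein, was at 233, 237 and 233 CPM against 6.01, 6.74 and 6.63 CPM, and Gngt2, a G protein gamma subunit, was at 188, 201 and 195 CPM against 1.59, 2.60 and 2.46 CPM. The rest of the 20 were Kcne3, Ecscr, Gimap1, Fxyd5, Adgrf5 and Ctla2a.

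**Figure D1:**
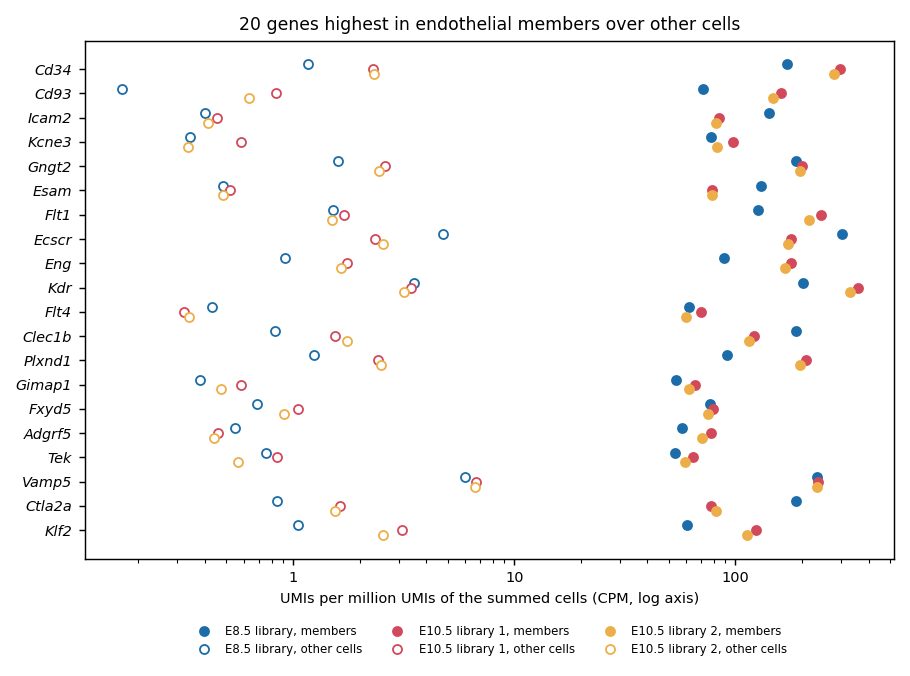
Level of the 20 genes of largest excess, in CPM on a log axis, with 1 row per gene and 1 colour per embryo library. Filled points are summed members and open points are all other cells. In every row the filled points lie far to the right of the open points. For Cd34 they stand at 172, 298 and 280 CPM against 1.17, 2.30 and 2.31 CPM.

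Promoter sequences are shown for 2 of the receptors that separate members from other cells, Kdr and Tie1, and for Etv2, whose fall between the stages is described further on. ETS factors such as Etv2 recognise a GGAA core. Each sequence runs from 250 bases before to 50 bases after the transcription start in RefSeq, is given 5′ to 3′ on the strand of the gene, and comes from build GRCm38.p6. The motifs CCGGAA and ACAGGAA were searched on both strands, and matches are in capitals. Both hold the GGAA core, but the base before it differs, so a core counted for one is not counted for the other. Kdr lies at chr5:75978406-75978705, Tie1 at chr4:118489800-118490099 and Etv2 at chr7:30635803-30636102, all on the minus strand.
Kdr: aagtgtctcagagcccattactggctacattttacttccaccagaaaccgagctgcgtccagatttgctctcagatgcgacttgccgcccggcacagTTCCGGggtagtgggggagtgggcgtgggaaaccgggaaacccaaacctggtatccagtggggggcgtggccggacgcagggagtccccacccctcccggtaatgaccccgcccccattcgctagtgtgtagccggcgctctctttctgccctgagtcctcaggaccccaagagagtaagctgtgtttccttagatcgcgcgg
Tie1: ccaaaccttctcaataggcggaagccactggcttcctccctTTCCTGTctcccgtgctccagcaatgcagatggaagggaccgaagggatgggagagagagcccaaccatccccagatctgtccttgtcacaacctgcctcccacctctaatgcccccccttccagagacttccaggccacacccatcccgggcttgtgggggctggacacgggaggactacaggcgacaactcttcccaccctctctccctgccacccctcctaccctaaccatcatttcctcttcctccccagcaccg
Etv2: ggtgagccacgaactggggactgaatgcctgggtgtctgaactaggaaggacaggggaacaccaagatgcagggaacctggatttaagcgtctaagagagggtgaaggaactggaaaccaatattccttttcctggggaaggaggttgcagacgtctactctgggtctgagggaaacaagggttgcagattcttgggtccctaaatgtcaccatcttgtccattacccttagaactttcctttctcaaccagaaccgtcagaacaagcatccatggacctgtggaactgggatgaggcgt
The Kdr window held 1 CCGGAA, read on the opposite strand, and the Tie1 window held 1 ACAGGAA, also on the opposite strand. The Etv2 window held neither string. Among all 32851 promoters of the same length, 14.9% held CCGGAA and 8.67% held ACAGGAA. Of the 18 promoters found for 15 of the 20 genes of largest excess, 1 (5.56%) held CCGGAA and 4 (22.2%) held ACAGGAA. The 1 with CCGGAA was that of Kdr, so it does not stand for the others. Tie1 was not among these 20 genes. These shares describe strings of letters and not binding.

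The question of how embryonic endothelium changes between E8.5 and E10.5 was put to summed UMI counts of the members with edgeR's quasi-likelihood test. A gene was called when its adjusted p was under 0.05. The spread came from all 9 libraries, and the lone E8.5 library is assumed to vary like the others. Of 13216 genes tested, 3995 (30.2%) were called, 1897 (14.4%) higher and 2098 (15.9%) lower at E10.5. DESeq2 called 2363, of which 731 were higher and 1632 lower. With another size factor (RLE) the numbers were 1500 higher and 2418 lower. The median log2 fold change over all genes was 0.10 in the edgeR fit and 0.03 with RLE, and changes are read against this shift. After every cell was thinned to 2000 UMIs, which left 428000 UMIs in the E8.5 sum, 737 genes were called. Among the genes named between the stages, Tal1, Sox7, Epas1, Foxc1, Edn1, Gja4, Gja5, Dll4, Notch4, Unc5b, Tie1, Esam, Col15a1, Ephb4, Smad6, Smad7, Tmem100, Esm1, Tyms, Aurka, Lin28a, Prl3b1, Nppa, Pde8a, Acot9, Utp23 and Ltv1 were no longer called at that depth. In the other cells 8946 of 17290 genes (51.7%) were called by the same test, 26.8% higher and 24.9% lower. For the lists that follow, the other cells had 14 higher and 7 lower of 28 transcription factors, 7 and 4 of 31 receptors, 6 and 2 of 11 venous, 2 and 2 of 9 flow, 4 and 2 of 15 sprouting and 6 and 2 of 13 brain barrier genes.

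Transcription factors of the endothelium were more often higher at E10.5. Of the 28 tested, 17 were higher and 3 lower, against 14.4% and 15.9% of all genes tested. The median log2 fold change was 0.49. The number lower is not above that background and is no result about the list. DESeq2 called 10 higher and 3 lower. Etv2 was at 59.0 CPM in E8.5 members and at 6.63 and 6.77 CPM in the E10.5 libraries. Both E10.5 libraries thus lay far below the E8.5 library, with a log2 fold change of -3.20 ± 0.14 (SE) and an adjusted p of 8.41e-09 in edgeR. Etv2 UMIs were seen in 115 of 214 E8.5 members (53.7%, against 7.48% of the other cells), in 37 of 488 members of E10.5 library 1 (7.58%, against 1.78%) and in 55 of 472 members of library 2 (11.7%, against 1.59%). At 2000 UMIs per cell these shares were 9.81%, 0.615% and 1.48% of members, against 1.12%, 0.289% and 0.174% of other cells. The fall was not limited to members, since Etv2 also fell by 2.60 on the log2 scale in other cells, and the difference between the falls was -0.60 ± 0.22 (edgeR, adjusted p = 0.098). Tal1, a factor of blood and endothelial progenitors, went from 33.5 CPM to 21.1 and 22.4 CPM and fell by 0.69 ± 0.13 on the log2 scale (edgeR, adjusted p = 0.000806).

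Among the 17 factors that were higher at E10.5 were SOX, forkhead and oxygen-regulated factors. Sox18, an F-group SOX factor of vessels and lymphatics, was at 2.16 CPM in the E8.5 library and at 16.49 and 16.89 CPM in the E10.5 libraries. Its log2 fold change was 2.88 ± 0.31 (edgeR, adjusted p = 5.42e-06), and both E10.5 libraries were well above the E8.5 library. Its relative Sox7 went from 22.7 CPM to 38.4 and 40.5 CPM, a log2 fold change of 0.73 ± 0.13 (edgeR, adjusted p = 0.00065). Epas1, which encodes the oxygen-regulated factor HIF-2 alpha, went from 10.3 CPM to 38.7 and 38.4 CPM, a log2 fold change of 1.84 ± 0.19 (edgeR, adjusted p = 3.45e-06). Foxc1, a forkhead factor of vessels and somites, rose from 13.4 CPM to 35.1 and 32.9 CPM. Erg, an ETS factor that maintains endothelium, stood at 24.5, 28.6 and 29.5 CPM, and its log2 fold change of 0.18 ± 0.13 was not called (edgeR, adjusted p = 0.332).

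Receptors and surface proteins were more often higher at E10.5. Of 31 tested, 17 were higher and 5 lower, against 14.4% and 15.9% of all genes tested. The median log2 fold change was 0.46. The number lower is close to that background and is no result about the list. Kdr, the main signalling receptor for VEGF-A, was at 203 CPM at E8.5 and at 357 and 329 CPM at E10.5. Both E10.5 libraries were above the E8.5 library, with a log2 fold change of 0.69 ± 0.10 (edgeR, adjusted p = 8.41e-05). Flt1, which binds VEGF-A and limits its action, rose from 126 CPM to 243 and 215 CPM, and Eng from 88.6 CPM to 179 and 167 CPM. Tie1, an orphan partner of Tek, rose from 41.3 CPM to 72.3 and 72.6 CPM (log2 fold change 0.75 ± 0.13, edgeR adjusted p = 0.000475). Robo4, a guidance receptor that steadies vessels, was at 5.00 CPM and then at 17.6 and 18.7 CPM, a log2 fold change of 1.79 ± 0.25 (edgeR, adjusted p = 5.07e-05). Among the 5 that fell were surface and junction proteins. Esam went from 131 CPM to 78.7 and 77.9 CPM, Icam2 from 142 CPM to 84.6 and 81.4 CPM, Ecscr from 303 CPM to 179 and 173 CPM, and Ramp2, a subunit of the adrenomedullin receptor, from 681 CPM to 452 and 454 CPM. Their log2 fold changes were -0.80, -0.83, -0.85 and -0.65. In each of these genes the E8.5 library was above both E10.5 libraries.

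Arterial genes were higher at E10.5 when they were called. Of 22 tested, 17 rose and none fell in the edgeR fit, against backgrounds of 14.4% and 15.9%, while in the other cells 13 of 22 rose and 2 fell; DESeq2 called 10, and 14 were called without the members rich in markers of other cells. The median log2 fold change was 1.07 over 21 genes, with 1 gene of 0 UMIs set to its bound and 1 under the floor left out. The gap junction genes Gja4 and Gja5, which couple arterial cells, went from 36.0 CPM to 60.9 and 66.0 CPM and from 10.95 CPM to 22.7 and 25.9 CPM. Efnb2, the ephrin that marks arteries, was at 14.2 CPM and then at 45.5 and 49.7 CPM. Its log2 fold change was 1.68 ± 0.16 (edgeR, adjusted p = 2.02e-06), and both E10.5 libraries exceeded the E8.5 library. Unc5b, a netrin receptor of arterial and tip cells, rose from 11.4 CPM to 36.5 and 38.9 CPM (1.67 ± 0.15, edgeR adjusted p = 1.01e-06), and Igfbp3, an IGF-binding protein, from 23.4 CPM to 85.6 and 86.7 CPM (1.82 ± 0.17, edgeR adjusted p = 1.72e-06). Among Notch genes, Notch4, an endothelial receptor, rose from 11.9 CPM to 31.7 and 30.2 CPM (1.31 ± 0.16, edgeR adjusted p = 1.69e-05). Its ligand Dll4 was at 11.2, 18.4 and 18.1 CPM, called by edgeR (0.64 ± 0.16, adjusted p = 0.00663) but not by DESeq2 (adjusted p = 0.12). Nrp1, a co-receptor for VEGF and semaphorins, rose from 91.7 CPM to 199 and 204 CPM.

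The 11 venous genes tested held 4 that rose and none that fell, with a median log2 fold change of 0.14; DESeq2 called 2. Ephb4, the receptor for Efnb2 on veins, rose from 22.2 CPM to 44.4 and 42.7 CPM (0.91 ± 0.14, edgeR adjusted p = 0.000163), and Vwf, a clotting protein, from 8.11 CPM to 27.0 and 29.0 CPM; Vwf was counted in this list but also led the arterial-like cells described further on. Ephb4 was not low in those arterial-like cells, at 26.52 against 21.82 CPM in other members at E8.5 and 39.25 against 44.03 CPM at E10.5. Aplnr, the apelin receptor, was at 95.5, 139 and 129 CPM. Its log2 fold change of 0.42 ± 0.12 was called by edgeR (adjusted p = 0.018) but not by DESeq2 (adjusted p = 0.116) nor without E10.5 library 1 (edgeR, adjusted p = 0.0759). Of 16 endocardial genes 4 rose and 3 fell, of 7 lymphatic genes 1 rose, and of 10 genes of hemogenic endothelium and early blood 2 rose. Over all genes tested 14.4% rose and 15.9% fell, and counts this close to that background are no result about these lists. The numbers under DESeq2 were 4 and 3 of 16, none of 4, and 1 of 7.

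Genes of the flow list rose in 6 of 8 cases, and none fell, with a median log2 fold change of 0.82. The background over all genes tested was 14.4% that rose and 15.9% that fell. DESeq2 called 5 of the 8 higher. Nos3 and Thbd were tested and not called. Klf2, which shear stress induces, was at 60.5 CPM at E8.5 and at 124 and 113 CPM at E10.5. Both E10.5 libraries lay above the E8.5 library, with a log2 fold change of 0.91 ± 0.14 (edgeR, adjusted p = 0.000138). Its relative Klf4 rose from 3.79 CPM to 13.4 and 11.1 CPM (1.63 ± 0.23, edgeR adjusted p = 7.57e-05). Edn1, the vasoconstrictor endothelin-1, rose from 15.7 CPM to 36.3 and 35.7 CPM (1.14 ± 0.17, edgeR adjusted p = 0.000112). Cav1, the coat protein of caveolae, went from 4.46 CPM to 38.0 and 33.9 CPM. At 2.94 ± 0.21 (edgeR, adjusted p = 1.95e-07) it had the largest log2 rise among genes with at least 20 CPM in both E10.5 libraries and at least the level of other cells.

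**Figure D2:**
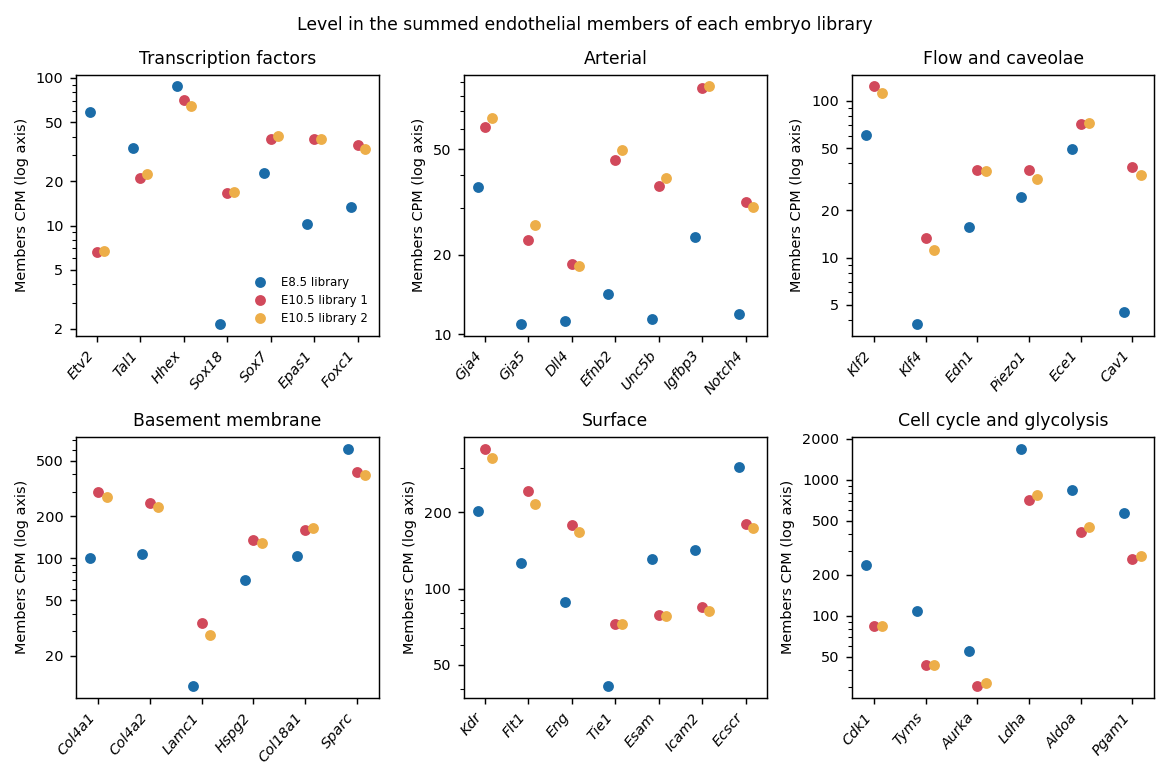
Level of named genes in summed members, in CPM on log axes, with 1 point per embryo library and no error bar, since each library gives 1 value. The 2 E10.5 points lie close together, and the E8.5 point lies above them for Etv2 (59.0 against 6.63 and 6.77 CPM) and below them for Col4a1 (101 against 297 and 273 CPM).

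Sprouting genes held 9 of 15 that rose and none that fell, with a median log2 fold change of 1.04. DESeq2 called 6. For this list and the next, the background over all genes tested was 14.4% that rose and 15.9% that fell. Pdgfb, the tip cell ligand that recruits pericytes, rose from 15.01 CPM to 38.9 and 32.8 CPM (1.19 ± 0.17, edgeR adjusted p = 6.46e-05), and Esm1, a tip cell proteoglycan, from 5.27 CPM to 17.7 and 16.7 CPM (1.64 ± 0.29, edgeR adjusted p = 0.000554). Of 15 genes of BMP and TGF-beta signalling, 9 rose and 1 fell, and DESeq2 called 6 higher and 1 lower of 14. In the other cells 10 of 17 rose and 2 fell, Smad6 and Smad7 among those that rose. Of 16 genes the change differed in favour of members for 3 and in favour of other cells for 1, Tgfb1. In members the inhibitory SMADs were also among those that rose, Smad6 from 6.09 CPM to 19.9 and 23.6 CPM (1.77 ± 0.23, edgeR adjusted p = 2.79e-05) and Smad7 from 17.4 CPM to 40.3 and 36.7 CPM. Tmem100, a target of BMP9 and BMP10 signalling, rose from 24.2 CPM to 53.3 and 54.0 CPM (1.08 ± 0.13, edgeR adjusted p = 2.15e-05). For all of these the E8.5 library was the lowest of the 3.

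Genes of the basement membrane rose in 11 of 15 cases and fell in 1, with a median log2 fold change of 0.72. Over all genes tested in members 14.4% rose and 15.9% fell. In the other cells of the same libraries 3 rose and 5 fell. Col4a1 and Col4a2, the chains of the main type IV collagen, were at 101 and 108 CPM in the E8.5 library. In the E10.5 libraries they were at 297 and 273 CPM and at 248 and 231 CPM, above E8.5 in both cases. Their log2 fold changes were 1.44 ± 0.13 and 1.09 ± 0.10 (edgeR, adjusted p = 1.68e-06 and 1.75e-06). Lamc1, a laminin chain shared by most laminins, rose from 12.2 CPM to 34.4 and 28.4 CPM, and Hspg2, which encodes perlecan, from 70.2 CPM to 136 and 128 CPM. Col15a1 rose from 13.4 CPM to 47.4 and 38.0 CPM, and Col18a1, the source of endostatin, from 104 CPM to 161 and 164 CPM. Sparc, a secreted calcium-binding matrix protein, was the gene of this list that fell, from 608 CPM to 416 and 391 CPM (-0.65 ± 0.09, edgeR adjusted p = 7.68e-05).

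Brain barrier genes rose in 6 of 11 cases and fell in 1, although the heads had been removed. DESeq2 tested 7 of them and called 1 higher and 1 lower. Over all genes tested by edgeR in members 14.4% rose and 15.9% fell. Foxq1, a forkhead factor of brain vessels, was at 1.62 CPM and then at 14.96 and 16.3 CPM, a log2 fold change of 3.20 ± 0.30 (edgeR, adjusted p = 1.66e-06). Itm2a, a membrane protein, fell from 83.6 CPM to 28.7 and 33.9 CPM (-1.48 ± 0.17, edgeR adjusted p = 8.69e-06). The levels of the neural list beside this result were 65.1 CPM at E8.5 and 133 and 134 CPM at E10.5, and 8 of its 11 genes were called higher, 6 without the members rich in markers of other cells. Of the mesenchyme list 7 of 11 genes were called higher in members, and 7 in other cells as well. Whether RNA of these cells contributes to the values in members was not tested.

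Genes of cell division and glycolysis were lower at E10.5 when they were called, with few exceptions. Of 16 genes of the G2 and M phases 14 fell and none rose, with a median log2 fold change of -0.57, and of 15 genes of the S phase 9 fell and none rose. In other cells 10 and 11 of these genes fell. The background over all genes tested in members was 15.9% that fell and 14.4% that rose. Cdk1, the kinase that starts mitosis, went from 236 CPM to 83.4 and 84.4 CPM. It fell by 1.56 ± 0.13 on the log2 scale (edgeR, adjusted p = 6.12e-07), and the 2 E10.5 libraries were nearly equal. Tyms, which makes thymidylate for DNA synthesis, went from 108 CPM to 43.3 and 43.0 CPM (-1.39 ± 0.12, edgeR adjusted p = 8.46e-07), and Aurka, a spindle kinase, from 55.2 CPM to 30.4 and 31.7 CPM. Of 18 genes of glycolysis and its regulation 9 fell and 2 rose in members, and 11 fell and 3 rose in other cells. Ldha, which turns pyruvate into lactate, went from 1694 CPM to 713 and 777 CPM (-1.25 ± 0.08, edgeR adjusted p = 1.3e-07). Aldoa and Pgam1, enzymes of the same pathway, went from 846 CPM to 416 and 448 CPM and from 571 CPM to 262 and 276 CPM.

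**Figure D3:**
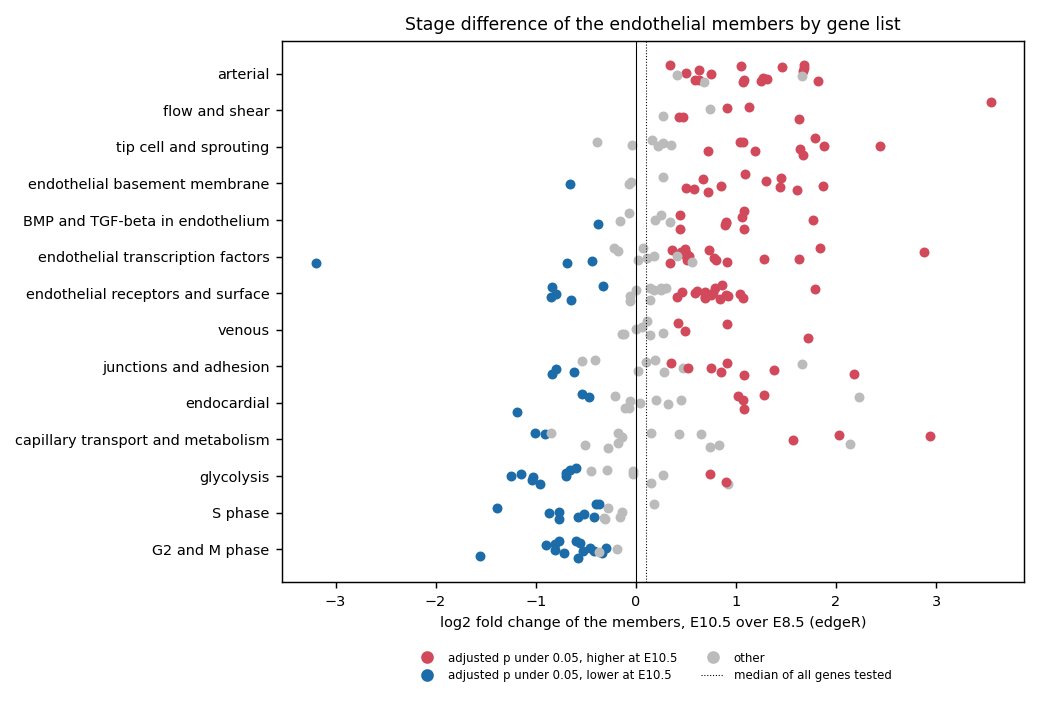
Log2 fold change in members from E8.5 to E10.5 for each gene of the lists shown, with 1 row per list. Called genes are coloured, other genes are grey, and the median over all genes is drawn as a dotted line. Genes with 0 UMIs in a stage are left out. Basement membrane, flow and arterial genes lie mostly to the right of the line, and genes of the G2 and M phases lie to its left, where 14 of 16 were called.

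Among genes in or outside the lists with at least 20 CPM in both E10.5 libraries and at least the level of other cells, those that rose most began with Cav1 and Abca1, the cholesterol exporter, which went from 3.65 CPM to 25.9 and 23.6 CPM (2.69 ± 0.24, edgeR adjusted p = 1e-06). Piezo2, a mechanically gated channel, rose from 6.63 CPM to 38.3 and 30.3 CPM (2.30 ± 0.22, edgeR adjusted p = 1.95e-06), and Cyp26b1, which breaks down retinoic acid, from 7.17 CPM to 38.5 and 33.8 CPM (2.27 ± 0.18, edgeR adjusted p = 4.12e-07). Tcf15, a factor of somites and of capillary endothelium, rose from 18.9 CPM to 78.9 and 82.8 CPM (2.03 ± 0.15, edgeR adjusted p = 2.63e-07). For several others the other cells moved alike. Ppp1r14b, a phosphatase inhibitor, had a log2 fold change of 2.22 in members and 2.25 in other cells, and the immediate early gene Fos 2.11 and 1.70. Sap30l (2.61), Pde8a (2.40), Ier3 (2.1), Snhg6 (1.94) and Tmem243 (1.93) complete this group.

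The genes that fell most, with at least 20 CPM at E8.5 and at least the level of other cells there, were Nppa, Etv2, Prl3b1 and Apoe. Nppa, the atrial natriuretic peptide of cardiomyocytes, was at 28.3 CPM at E8.5 and at 1.19 and 1.11 CPM at E10.5, but 201 of its 209 E8.5 UMIs came from 1 cell. Without the members rich in markers of other cells its log2 fold change of -4.67 became 1.36 (edgeR, adjusted p = 0.758). In the same alternative 0 of the 11 cardiomyocyte genes were called, against 10 that fell in all members, and Acta2, a smooth muscle actin also made by early cardiomyocytes, was no longer called (-1.96 and then -0.04, edgeR adjusted p = 0.965). Prl3b1, a prolactin family hormone of the placenta, gave 204 UMIs in 52 of 214 E8.5 members. It gave 59 UMIs in 35 of 488 and 62 UMIs in 42 of 472 E10.5 members, so its level was 27.6, 5.02 and 5.31 CPM. In edgeR it fell by 2.48 ± 0.28 on the log2 scale (adjusted p = 1.98e-05), while DESeq2 did not call it (adjusted p = 0.2). Apoe, a lipid carrier, went from 397 CPM to 85.5 and 94.5 CPM (-2.20 ± 0.17, edgeR adjusted p = 2.79e-07), and Prdx1, a peroxidase, from 1339 CPM to 387 and 417 CPM (-1.80 ± 0.13, edgeR adjusted p = 1.58e-07). Fkbp11, Uchl5, Bcap31, Tuba1c, Acot9, Utp23 and Ltv1 followed with log2 fold changes from -1.92 to -1.56. Lin28a, an RNA-binding protein of early embryos, went from 51.9 CPM to 19.4 and 19.7 CPM in members (-1.47 ± 0.15, edgeR adjusted p = 1e-05) and fell by 1.64 on the log2 scale in other cells.

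To ask which changes differed between members and the other cells of the same libraries, both sums were fitted together with the library as a block. The difference of the log2 changes was called for 1469 of 16665 genes (8.81%), 605 (3.63%) in favour of members and 864 (5.18%) in favour of other cells. The balance turned when every cell was thinned to 2000 UMIs, with 128 in favour of members and 45 of other cells, and when only the 2 stages were fitted, with 1860 and 683. Of the differences named here, those of Unc5b, Efnb2, Kdr and Cdk1 were not called after thinning. Basement membrane genes held 8 of 15 in favour of members and none the other way. Col4a1 and Col4a2 differed by 1.40 ± 0.08 and 1.23 ± 0.08 (edgeR, adjusted p = 7.7e-10 and 2.5e-09), and in other cells these genes stood between 26.7 and 31.0 CPM in the 3 libraries. Of the arterial genes 6 of 22 differed in favour of members, among them Unc5b (1.54 ± 0.16, edgeR adjusted p = 1.4e-06) and Efnb2 (0.88 ± 0.15, edgeR adjusted p = 0.00058). Kdr differed by 0.94 ± 0.18 (edgeR, adjusted p = 0.0013), which DESeq2 did not call (adjusted p = 0.136). Of the endothelial transcription factors 11 of 28 differed in favour of members and 5 the other way, and of the flow genes 4 of 9. The other cells are those left after members were taken, so many endothelial genes were low in them. Kdr stood there at 3.525 CPM in the E8.5 library and at 3.407 and 3.189 CPM in the E10.5 libraries. How far endothelial cells missed by the rule set these values was not tested. Of the genes of the G2 and M phases 5 of 16 differed, and the fall was the larger one in members, with Cdk1 at -0.73 ± 0.08 (edgeR, adjusted p = 3.9e-06). Among glycolysis genes 6 of 18 differed toward other cells and 2, Slc2a1 and Hk1, toward members, with Ldha at -0.36 ± 0.06 (edgeR, adjusted p = 0.00052).

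Members were also clustered within each stage, without a test, to see how they vary among themselves. The E8.5 members fell into 5 subclusters and the E10.5 members into 9; the genes named are those that set the clusters apart, and cluster sizes are not compared between the stages. A marker was counted as at least 2-fold up where it was seen in 10% of the cells or more and its level, after 5 CPM was added to both sides, was at least 2-fold that of the other members. An arterial-like subcluster was found at both. At E8.5 it held 29 cells (13.6% of members) and had 8 of 10 arterial markers at least 2-fold up. Cxcr4, at 5.305 against 0.4393 CPM, was not counted because of the added 5 CPM. Gja5 was at 142 CPM in it against 0.146 CPM in the other members, Gja4 at 255 against 17.9 CPM, and Hey1, a Notch target, at 163 against 13.8 CPM. At E10.5 the arterial-like subcluster held 13.3% of the members of library 1 and 12.3% of those of library 2, with 9 of 10 markers. Gja5 was at 205 CPM against 3.48 CPM there, Unc5b at 169 against 22.5 CPM and Vwf at 193 against 9.04 CPM. The smooth muscle genes Tagln, at 273 against 6.76 CPM, and Acta2, at 130 against 7.24 CPM, were among the leading genes at E10.5. Of the endocardial markers Npr3 and Tmem100 were at least 2-fold up at both stages. Of the hemogenic markers 1 was at least 2-fold up at each stage. It was Spi1 at E8.5 (10.61 against 1.025 CPM) and Runx1 at E10.5 (16.94 against 1.571 CPM). Runx1 (5.305 against 2.196 CPM) and Itga2b (14.15 against 7.029 CPM) at E8.5 were not counted because of the added 5 CPM. The part of other cells in these values was not tested. Sat1, an enzyme of polyamine breakdown, was among its leading genes at both stages, at 1179 against 55.8 CPM at E8.5 and at 1222 against 103 CPM at E10.5. Aplnr was low in these cells, at 14.2 against 102 CPM and at 7.85 against 148 CPM.

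An endocardial-like subcluster was likewise found at both stages, with 8 of 9 markers each time. Markers of other cells moved with it: 4 mesenchyme and 1 cardiomyocyte marker were at least 2-fold up at E8.5, and 3 mesenchyme and 4 cardiomyocyte markers at E10.5; their part in these values was not tested. At E8.5 it held 24 cells (11.2%), with Gata4 at 61.1 CPM against 2.39 CPM, Gata5 at 44.0 against 0.598 CPM and Hand2 at 114 against 2.84 CPM, all factors of heart development. At E10.5 it held 6.15% and 5.72% of the members of the 2 libraries, with Gata5 at 67.9 against 1.03 CPM and Tbx20 at 68.8 against 2.33 CPM. Cdkn1c, an imprinted inhibitor of the cell cycle, was at 1685 against 126 CPM in the E8.5 subcluster and at 2780 against 216 CPM in the E10.5 subcluster.

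**Figure D4:**
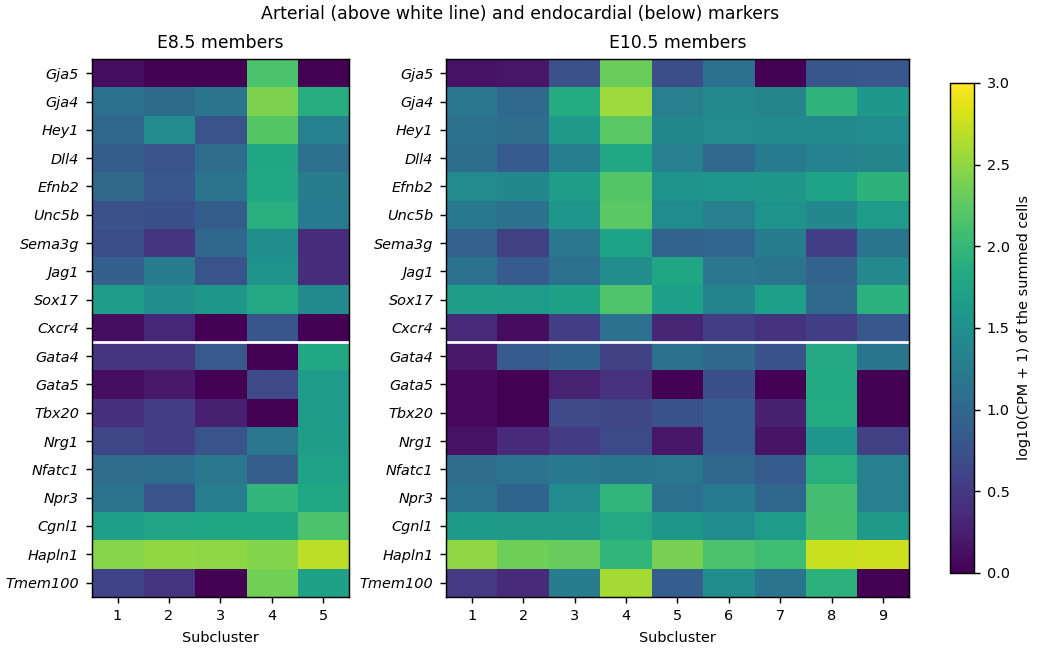
Level of the arterial and endocardial markers in the summed cells of each subcluster, as log10 of CPM + 1, with subclusters of E8.5 on the left and of E10.5 on the right. Subcluster 4 at each stage is bright for arterial markers such as Gja5 (142 and 205 CPM), and subclusters 5 at E8.5 and 8 at E10.5 are bright for endocardial markers such as Gata5 (44.0 and 67.9 CPM).

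The other subclusters were left unnamed and are given by their leading genes. At E8.5 the largest, of 78 cells (36.5%), was led by Prl3b1, at 54.8 CPM against 5.401 CPM, together with chaperonin and ribosome assembly genes such as Cct5 and Brix1; its cells had a median of 38672 UMIs. A subcluster of 44 cells was led by posterior Hox genes, with Hoxa7 at 59.0 against 4.49 CPM, and also by Myl7 at 637 against 153 CPM. In it 7 cardiomyocyte markers were at least 2-fold up, and the part of other cells in these values was not tested. Myl7 was seen in 61.36% of its cells against 40% of the other members. Of the 1910 Myl7 UMIs in E8.5 members 724 came from 1 cell. A subcluster of 39 cells was led by Lrrc32, Tcf15 and Col15a1, with Aplnr at 169 against 81.3 CPM. At E10.5 the largest, of 188 cells, was led by Apln, the ligand of Aplnr, at 39.0 against 12.9 CPM, and by Clec1b at 215 against 91.1 CPM. A subcluster of 131 cells had Etv2 among its leading genes, at 14.3 against 5.28 CPM, and held 3 sinusoidal markers at least 2-fold up, Stab2 (12.1 against 3.55 CPM), Lyve1 (12.4 against 2.94 CPM) and Oit3 (17.0 against 5.63 CPM). Maf, another of that list, was at 13.19 against 5.834 CPM and was not counted because of the added 5 CPM. A subcluster of 74 cells was led by genes that low oxygen induces, Ndufa4l2 at 92.1 against 9.52 CPM and the glucose transporter Slc2a3 at 174 against 27.2 CPM; it held 5.33% of members in library 1 and 10.2% in library 2. A subcluster of 102 cells was led by the neural genes Crabp1, at 948 against 94.4 CPM, and Tubb3, at 69.1 against 4.99 CPM, with a median of 33506 UMIs. In it 8 neural, 6 mesenchyme and 3 epithelial and endoderm markers were at least 2-fold up, and their part in these values was not tested. A subcluster of 47 cells had a median of 5224 UMIs and 3 venous markers at least 2-fold up, Aplnr at 418 against 129 CPM, Stab1 at 165 against 52.3 CPM and Nrp2 at 157 against 73.1 CPM. Flrt2, at 60.45 against 29.83 CPM, passed 2-fold only without the added 5 CPM. Also at least 2-fold up were the sinusoidal markers Stab1 and Maf, the endocardial Hapln1, the lymphatic Flt4 and 2 cardiomyocyte markers. The part of other cells in these values was not tested. This subcluster and the one of 131 cells reached the minimum of markers for a name but were left unnamed, a choice made after their values were seen. The remaining E10.5 subclusters, of 128 and 110 cells, were led by Myl7, Myl4 and Foxq1 and by Rpgrip1 and Actb. In the subcluster of 128 cells 5 cardiomyocyte markers were at least 2-fold up, but Myl7 was seen in 39.84% of its cells against 36.18% of the other members, and 402 of the 667 Myl7 UMIs in members of E10.5 library 2 came from 1 cell. The part of other cells in these values was not tested.

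Finally, members at E10.5 were set beside cells taken by the same rule from E12.5 hearts, 870 and 1007 cells in the 2 libraries. Here stage, tissue and sex composition change together and cannot be told apart. Of 13216 genes 7679 (58.1%) were called, 3813 (28.9%) higher and 3866 (29.3%) lower in the heart. Of 16 endocardial genes 14 were higher and 1 lower. Beside them the 11 cardiomyocyte genes had a median log2 fold change of 4.43 and the 11 mesenchyme genes one of 1.23. The part of other cells in the values of the endocardial genes was not tested. Gata4 went from 8.67 and 8.49 CPM to 59.4 and 69.9 CPM (2.88 ± 0.12, edgeR adjusted p = 3.39e-11), Npr3, a natriuretic peptide receptor, from 25 and 30.3 CPM to 128 and 135 CPM, and Nfatc1, a factor of valve endocardium, from 14.4 and 15.3 CPM to 53.3 and 56.2 CPM. Cdh11, a mesenchymal cadherin, went from 6.46 and 7.29 CPM to 113 and 122 CPM, and Nrg1, the ligand of ErbB receptors, from 3.40 and 4.29 CPM to 30.0 and 29.5 CPM. Hapln1, a link protein of cardiac jelly, was the gene that was lower, at 228 and 228 CPM and then at 152 and 145 CPM. The groups did not overlap for any of these genes. The share of all genes without overlap was not counted, so this is no result about the list. Of 8 flow genes 6 were higher in the heart and 1, Edn1, was lower. Klf2 went further up, from 124 and 113 CPM to 396 and 328 CPM, and Klf4 from 13.4 and 11.1 CPM to 61.5 and 57.3 CPM. In the same comparison the 11 immediate early and stress genes had a median log2 fold change of 0.72. Its relation to the values of Klf2 and Klf4 was not tested.

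Among genes with at least 20 CPM in both E12.5 libraries and at least the level of other cells, those that were higher in the heart by the most, outside the Y genes Ddx3y and Eif2s3y with 0 UMIs at E10.5, were Clca3a1, Mgp, Lgals9 and Ifi27. Clca3a1, of a family of chloride channel regulators, had 0 UMIs in both E10.5 libraries and was at 22.4 and 20.3 CPM in the heart, at least 79.2-fold higher against a floor of 3 UMIs per library. Mgp, an inhibitor of calcification, went from 0.255 and 0.686 CPM to 282 and 233 CPM, and Lgals9, a galectin, from 0.595 and 0.429 CPM to 125.2 and 124.2 CPM. Among those that were lower in the heart by the most, under the same rule for E10.5, were Trim71, a regulator of early embryonic cells, at 29.6 and 28.0 CPM and then at 0.219 and 0.286 CPM, the Wnt effector Lef1 and the transporter Slc2a3. Aplnr went from 139 and 129 CPM to 4.66 and 6.33 CPM (-4.63 ± 0.13, edgeR adjusted p = 5.9e-13), Tmem255a from 57.4 and 50.1 CPM to 2.96 and 3.00 CPM, and Col15a1 from 47.4 and 38.0 CPM to 2.25 and 3.00 CPM. In the 4 libraries of E14.5 and E16.5 hearts these genes stood higher again, Aplnr between 40.9 and 70.1 CPM, Tmem255a between 44.8 and 55.3 CPM and Col15a1 between 36.7 and 57.7 CPM. Position genes separated the tissues as well. All 29 Hox genes tested were lower in the heart, among them Hoxb8, at 19.4 and 21.2 CPM in the embryos and at 0 UMIs in both E12.5 libraries, at least 126-fold lower. Of the 11 cardiomyocyte genes all were higher in heart members and of the 11 neural genes all were lower; how far RNA of neighbouring cells sets these values was not tested.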

How the data were processed

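Cells of mouse embryos and hearts had been dissociated and sequenced with 10x Genomics 3′ chemistry, which the labels give as version 2 and the study as version 3. For every library the authors deposited raw UMI counts, with no normalization. The submitters' processing notes name Cell Ranger 2.1.1, Seurat 3.1.1 and mm10. Reads were not used here. The postnatal matrix and E8.5 replicate 1 were not used, and 2 sample records were joined in the file of E16.5 replicate 1. No doublet caller was run, and counts were not corrected for free RNA.

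Members and gene lists were chosen with earlier results of these data known. Counts were summed over members, and over other cells, per library; these sums held 7394713 UMIs for E8.5 members and 11762004 and 11666490 for E10.5 members. They were tested in edgeR 4.0.16 (R 4.3.3) with TMM normalization, edgeR's filter on low counts, its quasi-likelihood test with 4 residual degrees of freedom, and Benjamini-Hochberg adjustment. DESeq2 1.42.0 was an alternative. CPM is the sum for a gene per 1000000 UMIs of that sum, and 3′ counts were not compared between genes. Fits were also run on simulated data with known changes in well-expressed genes and the same fixed spread for every library. Such data cannot show how the lone E8.5 library varies or how genes of low counts behave. Subclusters came from Pearson residuals of 2000 variable genes, 20 principal components, 15 neighbours and Louvain clustering at resolution 0.8, in Python 3.11.15 with igraph 0.11.9; a name needed at least 3 markers 2-fold up. Ratios between subclusters were taken after 5 CPM, and ratios of members to other cells after 1 CPM, was added to both levels, and leading genes were seen in at least 25% of the cells. Medians of lists set genes with 0 UMIs in a stage to the bound that 3 UMIs allow.

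Named genes were, of each list, up to 6 called genes in each direction with the largest change and its defining members. Over all genes they were the 12 largest changes in each direction between the stages (6 against the heart) with at least 20 CPM in each library of the higher group and at or above the level of other cells, the 8 largest differences of change in each direction, and the 20 genes of largest excess over other cells. The 4 rule genes and the 7 globins were left out of these. Genes that lead a subcluster were chosen after their values were seen.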

Additional observations from a re-analysis of the deposited data

Results flagged for a closer look

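The change from E8.5 to E10.5 differed between members and other cells for 1469 genes by edgeR's test of the difference itself, with the library as a block. The values below are these differences on the log2 scale, positive where members gained on other cells. Many of these genes were under 4 CPM in other cells, whose sums held 137009935 UMIs at E8.5 and 225105190 and 220784420 UMIs at E10.5. The member sums were smaller, with 7394713 UMIs at E8.5 and 11762004 and 11666490 UMIs at E10.5. A given CPM thus rests on fewer UMIs in members than in other cells. After every cell was thinned to 2000 UMIs, 10 of the 16 differences below were no longer called, those of Epas1, Cav1, Abca1, Sox17, Sox7, Nppa, Ctla2b, Ctla2a, Lat and Erg. Erg also lost its call in 3 alternatives of the member rule.

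Toward members, the difference was 2.78 for Aplnr, which stood at 95.5, 139 and 129 CPM in members and at 3.42, 0.684 and 0.793 CPM in other cells of the E8.5 library and the 2 E10.5 libraries. It was 2.58 for Epas1 and 2.21 for Cav1, and 2.22 for the cytoskeletal gene Ablim1, at 12.7, 36.7 and 34.4 CPM in members and 12.9, 8.66 and 7.82 CPM in other cells. It was 2.19 for Edn1, at 5.16, 2.66 and 2.86 CPM in other cells, and 1.97 for Abca1. The SOX factors Sox17 and Sox7 had differences of 1.91 and 1.83, with Sox17 at 39.6, 54.1 and 50.9 CPM in members and 1.22, 0.458 and 0.453 CPM in other cells.

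Toward other cells, the difference was -4.12 for Nppa, which rests on 1 E8.5 member as described above. It was -3.85 for Sncg, a synuclein, at 26.9, 39.7 and 36.6 CPM in members and 0.372, 9.06 and 7.16 CPM in other cells. It was -2.64 for the stress gene Gadd45g, at 51.8, 27.0 and 16.6 CPM in members and 13.0, 35.6 and 36.5 CPM in other cells, and -2.59 for the growth factor Igf1, at 117, 78.1 and 75.4 CPM against 3.49, 14.3 and 14.8 CPM. The protease inhibitors Ctla2b and Ctla2a had -2.33 and -2.06, with Ctla2a at 189, 77.9 and 81.3 CPM in members. Lat, an adaptor of T cells and platelets, had -2.06, and Erg -2.04, with Erg at 0.0876, 0.458 and 0.467 CPM in other cells.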

How the results depend on the processing

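Counts of called genes depended on depth and tool. Between the stages, edgeR called 3995 genes in members, DESeq2 2363 and edgeR 737 after every cell was thinned to 2000 UMIs. Thinning also took the number in other cells from 8946 to 4717, the differences of change from 1469 to 173 (128 toward members and 45 toward other cells), and the heart comparison from 7679 to 3162; it leaves fewer UMIs and fewer genes to test. With only the 2 stages in the fit, the differences of change numbered 2543, of which 1860 favoured members and 683 other cells; the cause was not tested. Leaving out a library gave 3167 to 3172, 7050 to 7157, 1122 to 1233 and 6298 to 6962 calls in the 4 comparisons. Without the members rich in markers of other cells, an alternative chosen after seeing the data, the numbers were 3930 between the stages, 1568 for the differences and 7697 for the heart. A block by replicate number could be fitted for the heart comparison and gave 7806 calls. Libraries of the same number at E10.5 and E12.5 deviated from their stage means together by r = 0.0481 over 13227 genes. With 2 libraries per stage this is a single correlation, which cannot decide whether the numbers pair the libraries.

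For 116 gene values in the text, 1619 of 1674 alternative values kept direction and call, 51 lost the call and 4 changed sign, all 4 for Nppa. Without cells above 3 times the median UMIs its stage change was 0.10 and its difference from other cells 0.65, and without the members rich in markers of other cells they were 1.36 and 1.98. Of the 51, 41 were lost on thinning. Erg lost its call in 3 alternatives of the member rule, and Aplnr also without cells above 3 times the median UMIs. A marker sum of at least 8 left 196, 432 and 411 members. Subclusters numbered 4 and 6 at resolution 0.4 and 7 and 13 at 1.2. The single E8.5 library leaves its own spread unmeasured, and a gene under about 3 UMIs in a sum is at the floor of detection.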
